A study of Rattus norvegicus with 12 samples.

Results

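PIWI-interacting RNAs (piRNAs) are small RNAs that guide PIWI proteins, Argonaute relatives best known for silencing transposons in the germ line. They are cut from longer single-stranded precursors, and a piRNA name in a database stands for 1 sequence that was read in an earlier study, usually from gonads. They are far less abundant in liver than in the germ line, and the roles of single piRNAs there are mostly unknown, so none is given for the ones described below. Their sequences were not used here.

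The 9 piRNAs described here are rno_piR_000746, rno_piR_032799, rno_piR_000324, rno_piR_000562, rno_piR_001825, rno_piR_000753, rno_piR_000575, rno_piR_002302 and rno_piR_000127, out of 701 listed in the series. They were taken as a named list, selected on their read levels in these same libraries: low at 48 h after liver resection and higher again at 168 h. The differences of 48 h from pre_PH and of 168 h from 48 h are therefore described below with no test. The pre_PH and 168 h libraries took part in the choice, so the directions of 24 h and 168 h against pre_PH are partly fixed by it. That description held only in part on the scale of library reads: rno_piR_001825 and rno_piR_000753 were still below sham-operated liver at 168 h, and rno_piR_000575 and rno_piR_000127 overlapped it at 48 h. All 9 were listed in all 12 libraries, and all 9 were among the 80 piRNAs that passed the filter on low counts. By abundance they ranked from 13 to 45 among the 701 piRNAs, by mean level in sham-operated liver.

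The libraries hold small RNA of liver from rats of the inbred strain Fischer-344. In partial hepatectomy (PH) some lobes are cut away, and cells of the remnant divide until the mass is restored. The groups were normal liver of sham-operated rats (pre_PH, 6 libraries) and regenerating liver at 24 h, 48 h and 168 h after partial hepatectomy (2 libraries each). The labels used here gave no age or sex, did not say whether libraries came from separate animals or pools, and named no batch. The p-values therefore speak of the spread from library to library, which may be technical. The question of the series was how piRNA amounts change over the course of regeneration.

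Library totals were 20741811 to 31467460 reads, of which 120844 to 351818 were listed under piRNA names (0.408% to 1.25% of the library). One sham library stood apart by that share: pre_PH replicate 3 had 1.25%, and the other 11 had 0.408% to 0.858%. The 48 h libraries listed 328 and 446 piRNA names, against 129 to 216 in pre_PH. Because whole liver was sequenced, fewer cells of a type and less RNA per cell cannot be told apart for any value below. No marker genes are in the piRNA tables, so the tissue was not checked against them.

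Together the 9 piRNAs held a small and variable part of the library. Levels are given as RPM, the reads of a name per 1000000 reads of the authors' library total. The summed level had a lowest, median and highest value of 82.6, 136 and 202 RPM in pre_PH. It was 93.7 and 83.9 RPM at 24 h, 39.0 and 45.0 RPM at 48 h, and 224 and 207 RPM at 168 h. Both 48 h libraries lay below all other libraries and both 168 h libraries above all others, while the 24 h libraries lay at the low edge of pre_PH. The group means were 88.8 ± 6.93 RPM at 24 h, 42.0 ± 4.25 RPM at 48 h and 216 ± 11.5 RPM at 168 h (SD, n = 2 each), against 136 ± 44.6 RPM in pre_PH (SD, n = 6), which gives 0.655, 0.310 and 1.59 times the pre_PH mean. All other piRNAs together were 6022 ± 2715 RPM at 24 h, 6870 ± 1531 RPM at 48 h and 4496 ± 911 RPM at 168 h. In pre_PH they were 6999 ± 2974 RPM, which gives 0.860, 0.982 and 0.642 times the pre_PH mean. Their lowest, median and highest pre_PH values were 4659, 5673 and 12433 RPM, the highest in replicate 3, which raised that mean. As a share of listed piRNA reads, the 9 held 0.669% and 0.562% at 48 h and 5.49% and 3.88% at 168 h, against 0.758% to 3.61% in pre_PH. The sums depended on rno_piR_000746, the most abundant of the 9. Without it they were 43.1 to 92.1 RPM in pre_PH and 68.0 and 61.7 RPM at 24 h, inside that range. They were 32.0 and 23.5 RPM at 48 h, still below all other libraries. At 168 h they were 88.4 RPM in replicate 1, inside the pre_PH range, and 110 RPM in replicate 2, above it.

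**Figure D1:**
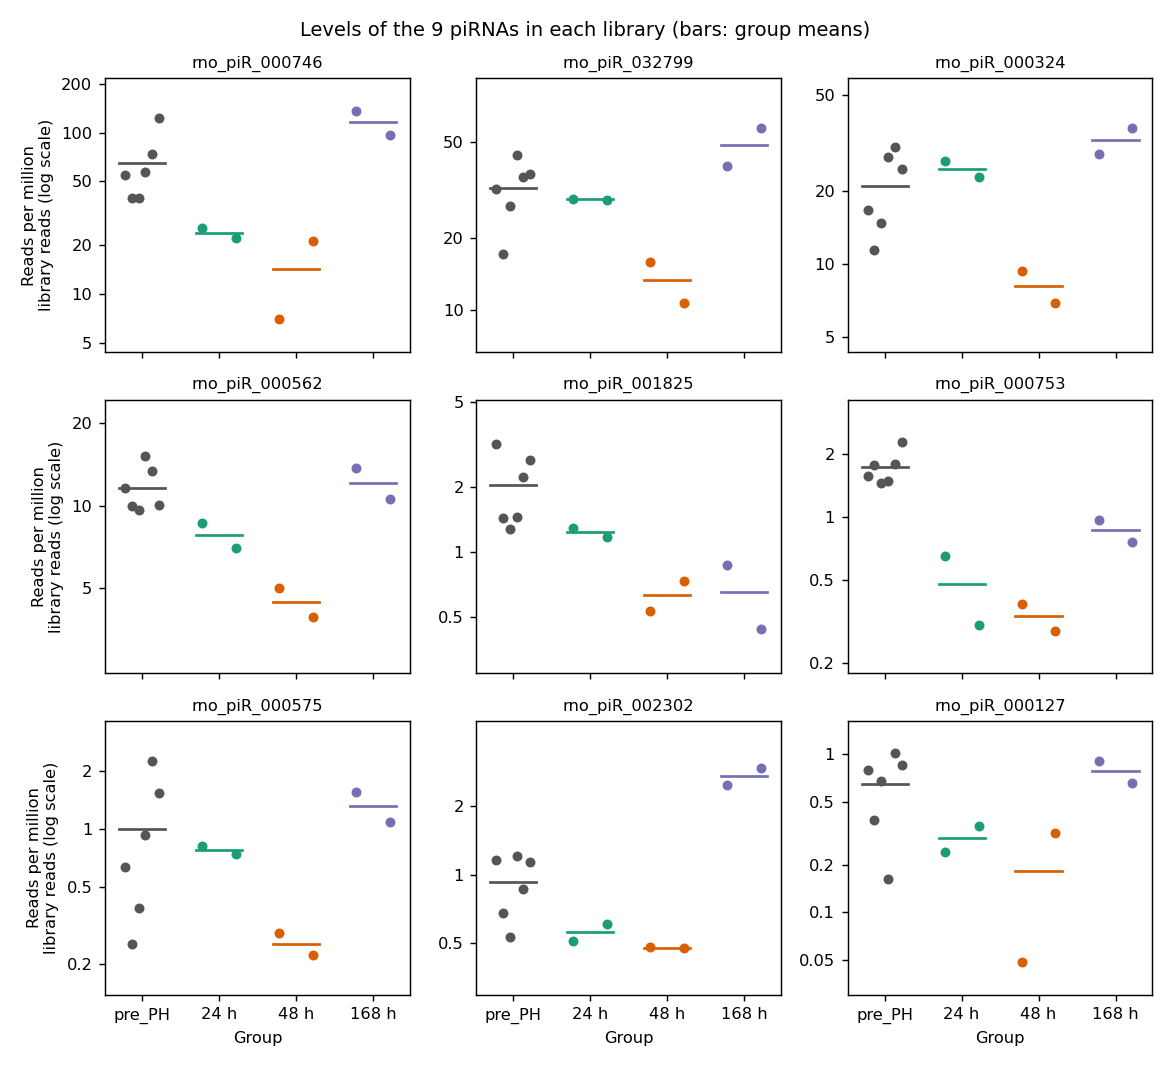
Level of each of the 9 piRNAs in each of the 12 libraries, in RPM on a log axis, by group (6 pre_PH libraries, 2 at each time), with a bar at the group mean. The 48 h points lie below all pre_PH points in 7 of 9 panels, rno_piR_001825 and rno_piR_000753 lie below all pre_PH points at 168 h, and rno_piR_002302 lies above them.

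The most abundant of the 9, rno_piR_000746, was at 39.2, 55.9 and 123 RPM in pre_PH (lowest, median, highest). It was at 25.7 and 22.1 RPM at 24 h, 6.99 and 21.4 RPM at 48 h, and 135 and 97.0 RPM at 168 h. Both libraries at 24 h and both at 48 h lay below all 6 pre_PH libraries. The 2 libraries at 48 h differed 3.06-fold, against 1.16-fold at 24 h and 1.40-fold at 168 h, and the 168 h libraries lay at the top of the pre_PH range, replicate 1 above it and replicate 2 inside it. All 12 libraries were fitted together with TMM scaling, which sets levels relative to the other piRNAs, and a call was an adjusted p under 0.05 over the 80 piRNAs tested. In that fit the log2 fold change over pre_PH was -1.10 ± 0.67 at 24 h and 1.35 ± 0.58 at 168 h (SE), and neither passed (edgeR quasi-likelihood, adjusted p = 0.525 and 0.195, over the alternatives 0.207 to 1 and 0.112 to 1).

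The next by level were rno_piR_032799 and rno_piR_000324, whose levels had similar profiles. The level of rno_piR_032799 was 17.2, 33.9 and 43.9 RPM in pre_PH (lowest, median, highest), 29.1 and 28.6 RPM at 24 h, 15.9 and 10.7 RPM at 48 h, and 39.6 and 57.3 RPM at 168 h. That of rno_piR_000324 was 11.4, 20.7 and 30.5 RPM in pre_PH, 26.7 and 22.9 RPM at 24 h, 9.35 and 6.90 RPM at 48 h, and 28.4 and 36.7 RPM at 168 h. In both, the 24 h libraries lay inside the pre_PH range, both 48 h libraries lay below it, and 1 of the 2 libraries at 168 h lay above it. Of the 36 pairs among the 9, this pair had the smallest distance between profiles over the 12 libraries, with a mean absolute difference of 0.187 between their centred log2 normalised values. The ratio of rno_piR_000324 to rno_piR_032799 was 0.920 and 0.802 at 24 h, 0.590 and 0.644 at 48 h and 0.718 and 0.639 at 168 h, against 0.524 to 0.853 in pre_PH, so only 1 of the 6 libraries after hepatectomy was outside the pre_PH range.

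A steadier one in sham-operated liver was rno_piR_000562, at 9.61, 10.8 and 15.2 RPM in pre_PH. It was at 8.62 and 6.99 RPM at 24 h, 5.01 and 3.91 RPM at 48 h, and 13.7 and 10.6 RPM at 168 h. The 24 h libraries lay just below the pre_PH range, the 48 h libraries lower still, and the 168 h libraries inside it. Its log2 fold change over pre_PH at 24 h was -0.25 ± 0.52 with TMM scaling (SE, edgeR adjusted p = 0.927) and -0.57 ± 0.39 when scaled to the authors' library totals (edgeR adjusted p = 0.436; 0.418 to 1 over all alternatives).

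Below these 4 came rno_piR_001825 and rno_piR_000753, which differed from the others in not returning to sham levels on the library scale by 168 h. The level of rno_piR_001825 was 1.28, 1.84 and 3.19 RPM in pre_PH, 1.30 and 1.18 RPM at 24 h, 0.530 and 0.731 RPM at 48 h, and 0.870 and 0.437 RPM at 168 h. The 4 libraries at 48 h and 168 h all lay below pre_PH and overlapped each other, so the description of a low followed by a recovery was not borne out for this piRNA on the scale of library reads. With TMM scaling its log2 fold change at 168 h was 1.30 over 48 h, against 0.05 when scaled to library totals. Against pre_PH it was -1.09 ± 0.65 at 168 h and did not pass (SE, edgeR adjusted p = 0.372, over the alternatives 0.0383 to 0.947). It passed without pre_PH replicate 4 alone, at -2.27 ± 0.59 (edgeR adjusted p = 0.0383).

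The level of rno_piR_000753 was 1.46, 1.68 and 2.28 RPM in pre_PH, the narrowest relative spread of the 9 there (coefficient of variation 17.6%). It was 0.650 and 0.306 RPM at 24 h, 0.386 and 0.286 RPM at 48 h, and 0.967 and 0.765 RPM at 168 h. All 6 libraries after hepatectomy lay below all 6 pre_PH libraries on this scale. The pre_PH libraries took part in the choice of the 9, so the direction of these differences is partly fixed by it. Few reads stood behind these values, 19 and 7 at 24 h, 8 and 9 at 48 h and 30 and 21 at 168 h, against 37 to 64 in pre_PH. Counting error alone gives 0.167 to 0.760 RPM for 48 h replicate 1 and 0.131 to 0.543 RPM for 48 h replicate 2 (exact Poisson 95% intervals), both still under the lowest pre_PH value. At 24 h its log2 fold change over pre_PH was -1.49 ± 0.65 with TMM scaling and did not pass (SE, edgeR adjusted p = 0.343, over the alternatives 0.0408 to 1). It passed when scaled to the authors' library totals, at -1.83 ± 0.50 (edgeR adjusted p = 0.0469), and without 48h replicate 2, at -1.93 ± 0.49 (edgeR adjusted p = 0.0408). At 168 h it was -0.57 ± 0.61 and did not pass (edgeR adjusted p = 0.663, over the alternatives 0.104 to 1).

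The rarest 3 were near or below 1 RPM in pre_PH, and of these rno_piR_000575 and rno_piR_000127 had wide spreads there (coefficients of variation 76.4% and 49.0%), against 30.4% in rno_piR_002302. The level of rno_piR_000575 was 0.255, 0.784 and 2.26 RPM in pre_PH, 0.821 and 0.742 RPM at 24 h, 0.289 and 0.222 RPM at 48 h, and 1.55 and 1.09 RPM at 168 h. The pre_PH libraries differed 8.86-fold, and only 1 of the 2 libraries at 48 h, with 7 reads, lay below them. That of rno_piR_000127 was 0.162, 0.732 and 1.01 RPM in pre_PH, 0.239 and 0.349 RPM at 24 h, 0.0482 and 0.318 RPM at 48 h, and 0.903 and 0.655 RPM at 168 h. Its 48 h values came from 1 and 10 reads, and the exact Poisson 95% interval for 48 h replicate 1, 0.00122 to 0.269 RPM, reached into the pre_PH range. For these 2 piRNAs the low value at 48 h therefore overlapped pre_PH on the library scale.

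The third of them, rno_piR_002302, was the one member called at 168 h against pre_PH, and whether it differed from the other 8 was not tested. Its level was 0.534, 1.00 and 1.21 RPM in pre_PH, 0.513 and 0.611 RPM at 24 h, 0.482 and 0.477 RPM at 48 h, and 2.48 and 2.95 RPM at 168 h. Both 168 h libraries lay above all other libraries, with 77 and 81 reads against 10 to 32 elsewhere. The 168 h mean was 2.72 ± 0.330 RPM (SD, n = 2) against 0.933 ± 0.284 RPM in pre_PH (SD, n = 6). Its log2 fold change over pre_PH was 1.91 ± 0.50 with TMM scaling (SE, edgeR adjusted p = 0.0277, over the alternatives 0.0157 to 0.678). The fold was above 1 in all 20 alternatives but passed in 8. It was lost with the authors' library totals (edgeR adjusted p = 0.0634), with 5 other settings, and without pre_PH replicate 4, 48h replicate 1 or any 1 of the 24 h and 168 h libraries, where the log2 fold change was 1.09 to 1.72. The pre_PH and 168 h libraries both took part in the choice of the 9. The direction of this difference is therefore partly fixed by it, and the call is not independent of it.

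Read across the list, 0 of 9 passed at 24 h against pre_PH by edgeR, beside 2.5% of the 80 piRNAs tested, with 1 of 9 at an unadjusted p under 0.05, beside 9 of 80, and 0 by DESeq2. The median log2 fold change was -0.40 over the 9 and -0.22 over all 80. This contrast shares the pre_PH libraries with the choice of the list, so its direction is partly fixed by the choice. At 168 h against pre_PH 1 of 9 passed, beside 6.25% of all tested, with medians of 0.92 and 0.33, 2 of 9 at an unadjusted p under 0.05, beside 13 of 80, and 0 by DESeq2. Both groups of that contrast took part in the choice, so its calls are not independent of it. For 168 h against 24 h, which shares only the 168 h libraries with the choice of the list, 0 of 9 passed by edgeR, beside 1.25% of all tested, with 2 of 9 at an unadjusted p under 0.05, beside 13 of 80, and 0 by DESeq2. The medians there were 0.92 over the 9 and 0.56 over all 80. The largest log2 fold changes there were those of rno_piR_000746 (2.45 ± 0.80, SE, edgeR adjusted p = 0.111, over the alternatives 0.0490 to 0.555) and rno_piR_002302 (2.36 ± 0.70, edgeR adjusted p = 0.0757, over the alternatives 0.0245 to 1). Without 48h replicate 2 both passed, and rno_piR_002302 also did with the authors' library totals. These comparisons share pre_PH, 24 h or 168 h libraries with one another, so their values are not independent.

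In the contrasts that chose the list, the fitted log2 fold changes at 48 h over pre_PH ran from -3.07 in rno_piR_000753 to -1.65 in rno_piR_002302, with a median of -2.40 over the 9 and 0.09 over all 80. All 9 were among the 11 lowest of the 80. The other 2 were rno_piR_004288, at -2.46, and rno_piR_000685, at -1.69, just inside the last of the 9, and the first below them in order was rno_piR_000552, at -1.51. At 168 h over 48 h the values ran from 1.30 in rno_piR_001825 to 4.32 in rno_piR_000746, with a median of 3.02 over the 9 and 0.01 over all 80. Of all tested, 12.5% were called lower at 48 h than in pre_PH and 16.2% higher at 168 h than at 48 h, from which nothing is read for the 9.

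How far the levels differed depended on the scale. Scaling to the authors' library totals in place of TMM moved the median log2 fold change of all 80 tested piRNAs at 48 h over pre_PH from 0.09 to 0.83. That of the 9 moved from -2.40 to -1.68, so the 9 stayed below 0 under both. In RPM, 7 of 9 lay below all pre_PH libraries at 48 h, beside 10% of the 80. With TMM-normalised values it was 8 of 9, beside 18.8%, and as a share of piRNA reads 3 of 9, beside 5%. In that last scale pre_PH replicate 3, the library with the largest piRNA share, set the lowest pre_PH value of all 9 but rno_piR_000127. At 24 h the count below pre_PH was 3 of 9 in library reads (rno_piR_000746, rno_piR_000753 and rno_piR_000562), beside 15% of the 80, then 2 of 9 with TMM, beside 12.5%, and 0 of 9 as a share of piRNA reads, beside 6.25%. At 168 h, 1 of 9 lay above all pre_PH libraries in library reads, beside 12.5%, and 2 of 9 below, beside 10%. With TMM it was 3 of 9 above, beside 15%, and 0 of 9 below, beside 3.75%, and as a share of piRNA reads 3 of 9 above, beside 18.8%, and 0 of 9 below, beside 1.25%. The low values of rno_piR_001825 and rno_piR_000753 at 168 h thus overlapped pre_PH on both other scales. Of the 9, 8 lay higher in both 168 h libraries than in both 24 h libraries in library reads, beside 33.8% of the 80, and 1 of 9, rno_piR_001825, lay lower, beside 17.5%. With TMM 4 of 9 lay higher, beside 30%, and 0 of 9 lower, beside 10%. As a share of piRNA reads 6 of 9 lay higher, beside 37.5%, and 0 of 9 lower, beside 8.75%. The pre_PH, 48 h and 168 h libraries took part in the choice of the list, so nothing particular to the 9 is read from any of these counts.

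**Figure D2:**
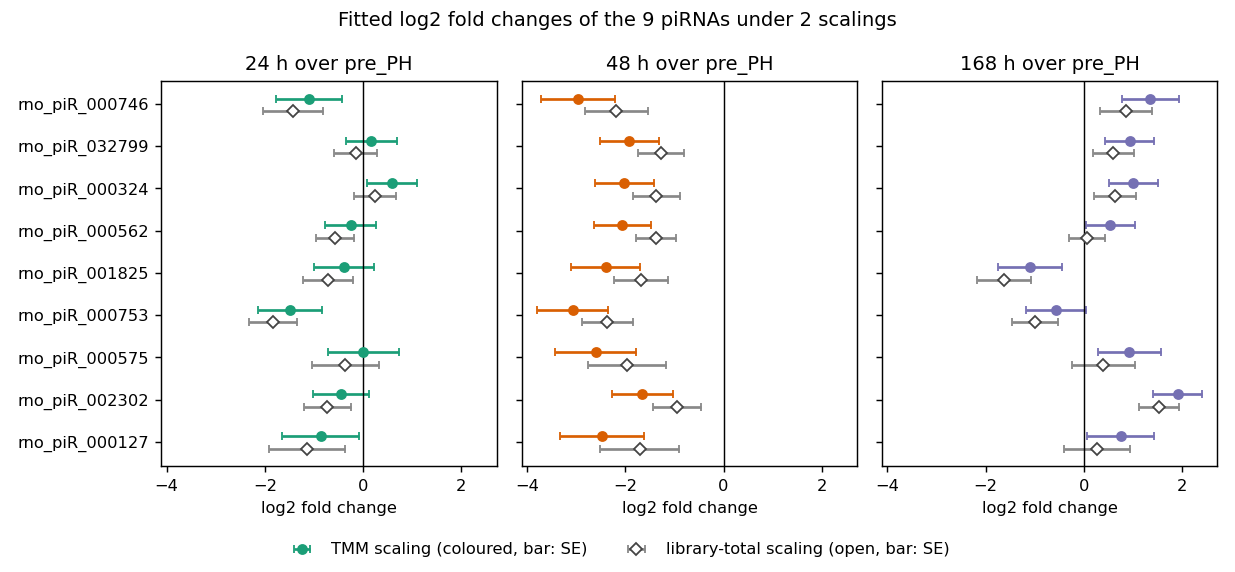
Fitted log2 fold change of each of the 9 piRNAs over pre_PH at 24 h, 48 h and 168 h, with TMM scaling (filled) and with scaling to the authors' library totals (open), each with its standard error. All 9 lie below 0 at 48 h under both scalings (the difference they were selected on), while at 168 h 7 lie above 0 and rno_piR_001825 and rno_piR_000753 below.

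Ratios between piRNAs of 1 library do not depend on how libraries are scaled. Those described next were picked after their values were seen. At 24 h the ratio of rno_piR_000746 to rno_piR_000324 was 0.960 and 0.966, against 2.05 to 4.98 in pre_PH, and the ratio of rno_piR_000746 to rno_piR_032799 was 0.884 and 0.774, against 1.30 to 3.35. In pre_PH rno_piR_000746 thus had more reads than either in all 6 libraries, and at 24 h fewer than either in both. At 48 h replicate 1 it still had fewer, with 145 reads against 194 of rno_piR_000324 and 329 of rno_piR_032799, while 48 h replicate 2, with 674 reads against 217 and 337, was back in the pre_PH order. Its ratio to rno_piR_000324 at 168 h was 4.76 and 2.64, inside the pre_PH range. That to rno_piR_032799 was 3.42 and 1.69, just above its pre_PH range of 1.30 to 3.35 in replicate 1 and inside it in replicate 2.

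The ratio of rno_piR_000753 to rno_piR_000562 was below pre_PH at every time. It was 0.0754 and 0.0438 at 24 h, 0.0769 and 0.0732 at 48 h and 0.0706 and 0.0724 at 168 h, against 0.0987 to 0.228 in pre_PH. The ratio of rno_piR_001825 to rno_piR_000562 was below pre_PH at 168 h, at 0.0635 and 0.0414 against 0.0960 to 0.276. At 168 h that of rno_piR_001825 to rno_piR_002302 was 0.351 and 0.148, against 1.20 to 2.74 in pre_PH, and that of rno_piR_032799 to rno_piR_002302 was 15.9 and 19.4, against 25.2 to 50.7.

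Of the 36 ratios among the 9, 11 left the pre_PH range in both replicates at 24 h (30.6%), 5 at 48 h (13.9%) and 17 at 168 h (47.2%). Among all 1770 pairs of the 60 tested piRNAs that were found in every library, the same held for 20.3% at 24 h, 37.7% at 48 h and 17.5% at 168 h. The share among the 9 was lower than the background at 48 h and higher than the background at 24 h and 168 h. A choice for a common low at 48 h favours steady ratios there, and pre_PH and 168 h libraries took part in that choice. Nothing particular to the 9 is therefore read from these shares. Pairs share members and libraries, so these shares carry no test. At 168 h, rno_piR_000753 and rno_piR_001825 each took part in 7 of the 17 ratios and rno_piR_002302 in 5.

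**Figure D3:**
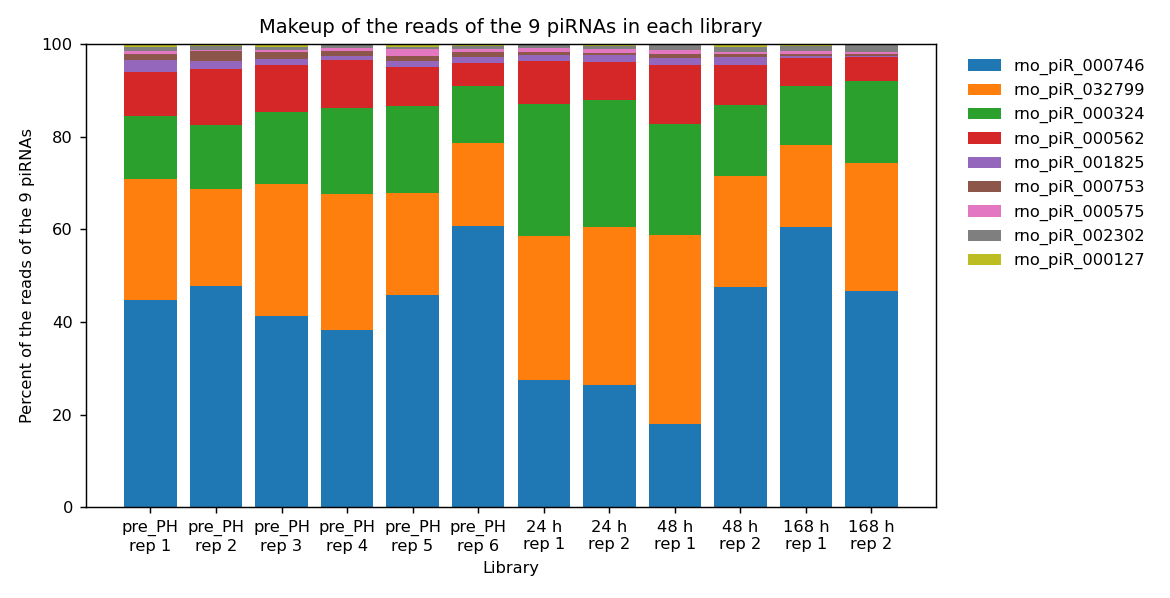
Percent of the reads of the 9 piRNAs held by each one, stacked to 100 for each of the 12 libraries. The share of rno_piR_000746 is 38.2% to 60.6% in pre_PH, 27.4% and 26.4% at 24 h, 17.9% and 47.6% at 48 h, and 60.5% and 46.7% at 168 h.

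Within the reads of the 9, rno_piR_000324 held 28.6% and 27.3% at 24 h, against 12.2% to 18.9% in pre_PH, and rno_piR_032799 31% and 34.1%, against 18.1% to 29.5%. Both shares lay above the pre_PH range, while the levels of both in RPM at 24 h lay inside it. A share of a sum depends on its other parts. That of rno_piR_000746 was 27.4% and 26.4% at 24 h, against 38.2% to 60.6% in pre_PH. At 168 h rno_piR_001825 held 0.389% and 0.211% of these reads, against 0.977% to 2.60% in pre_PH, and rno_piR_002302 held 1.11% and 1.42%, against 0.537% to 0.95%. The share of rno_piR_002302 was also above its pre_PH range at 48 h, at 1.24% and 1.06%, where its level in RPM was below pre_PH. The share of rno_piR_000753 was below the pre_PH range at 168 h, as it was at 24 h and 48 h, while at 168 h the shares of the other 6 overlapped it.

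A second deposited readout, the number of distinct read sequences counted under each name, differed widely among the 9. Under rno_piR_000562 there were 16 to 22 distinct sequences in pre_PH, 17 and 18 at 24 h, 17 and 17 at 48 h, and 18 and 18 at 168 h, so the number held while its reads at 48 h were 104 and 123, against 235 to 384 in pre_PH. Under rno_piR_000746 there were 21 and 22 at 48 h, against 18 to 28 in pre_PH, although 48 h replicate 1 had only 145 reads, or 6.90 reads per distinct sequence, against 42.3 to 123 in pre_PH. At 168 h it had 29 and 34 distinct sequences, above all pre_PH libraries, with 4197 and 2663 reads. The number of distinct sequences depends on the number of reads, and whether it differed at equal reads was not tested.

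The other members had fewer variants or fewer reads behind them. Under rno_piR_000753 there were 8 and 4 distinct sequences at 24 h, 6 and 8 at 48 h and 9 and 7 at 168 h. All lay below the 11 to 19 of pre_PH. Its reads did not overlap pre_PH either, at 19 and 7, 8 and 9, and 30 and 21, against 37 to 64. Whether its sequences were fewer at equal reads was not tested. The reads of rno_piR_000753 were spread over many sequences, at 2.18 to 3.82 reads per distinct sequence in pre_PH and 1.33 and 1.12 at 48 h. In contrast, rno_piR_032799 had 4 and 4 at 48 h against 5 to 7 in pre_PH, with 329 and 337 reads, or 82.2 and 84.2 reads per distinct sequence. In rno_piR_000127 a single sequence accounted for all reads in 11 of 12 libraries, and rno_piR_000575 had 1 in 9 of 12. Names with similar sequences could share reads, and the treatment of such reads is not given in the sources used here.

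**Figure D4:**
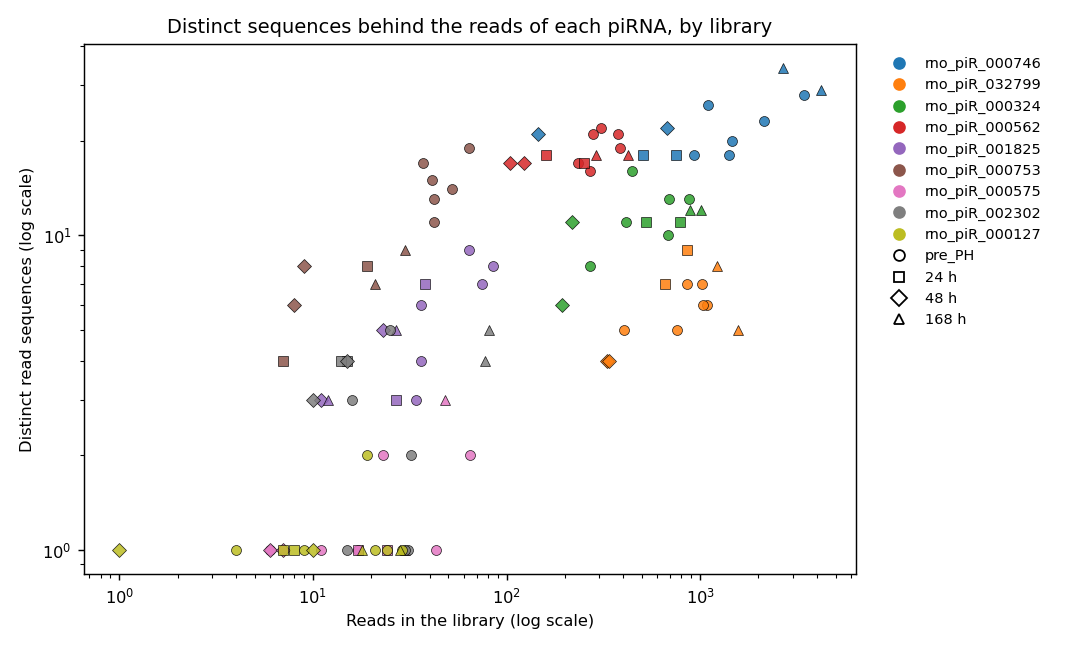
Number of distinct read sequences against the number of reads for each of the 9 piRNAs in each of the 12 libraries, both on log axes, with colour for the piRNA and marker shape for the group. At similar reads the piRNAs differ widely, rno_piR_000753 having 11 to 19 distinct sequences in pre_PH with 37 to 64 reads, and rno_piR_000575 having 1 or 2 with 6 to 65 reads.

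Outside the list, 3 piRNAs had the most similar profile over the 12 libraries, by mean absolute difference from the mean centred log2 profile of the 9. These were rno_piR_004288 (0.429), rno_piR_000699 (0.430) and rno_piR_000693 (0.519), against 0.268 to 0.603 within the list. Among these, rno_piR_004288 was 421 ± 43.6 RPM at 24 h, 240 ± 26.6 RPM at 48 h and 509 ± 158 RPM at 168 h (SD, n = 2 each), against 805 ± 338 RPM in pre_PH (SD, n = 6). The level of rno_piR_000699 was 10.7 ± 0.863 RPM at 24 h, 16.1 ± 4.38 RPM at 48 h and 24.0 ± 3.14 RPM at 168 h, against 19.9 ± 4.43 RPM in pre_PH, so on the library scale its low was at 24 h. That of rno_piR_000693 was 0.280 ± 0.0875 RPM at 24 h, 0.232 ± 0.0132 RPM at 48 h and 0.510 ± 0.464 RPM at 168 h, against 0.397 ± 0.172 RPM in pre_PH.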

How the data were processed

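Small RNA libraries were made from total RNA with an Illumina TruSeq small RNA kit and sequenced on a HiSeq instrument, per the labels' protocols. The authors deposited, for each library, the read count and the count of distinct read sequences under each piRNA name, and the reads as a percent of all reads of the library, per the file headers. CASAVA 1.8, cutadapt, DESeq 1.14.0 and the build rn4 are named in the submitters' processing notes, with no role. Aligner, allowed mismatches and the handling of multiply matching reads: not given in the sources used here. The library total was computed as reads over the deposited percent, which gave 1 constant per library.

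Counts of all 12 libraries were fitted together with edgeR 4.0.16 (quasi-likelihood, TMM scaling, filterByExpr, 4 groups), with Benjamini-Hochberg adjustment over the 80 piRNAs tested and a threshold of 0.05. The SE is the absolute log2 fold change divided by the square root of F. Alternatives, including DESeq2 1.42.0 without a filter, are in the closing section. The biological coefficient of variation was 0.591. Intervals are exact Poisson and cover counting error only. No replicate pair agreed within sampling noise. The code was tested on simulated counts. The 9 members, the piRNAs next to them in order at 48 h over pre_PH and the 3 most similar others by profile (log2 CPM with a pseudocount of 1) are named. Members and lists were chosen with earlier results of these data known.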

Additional observations from a re-analysis of the deposited data

Results flagged for a closer look

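In pre_PH, rno_piR_000127 had 2 distinct read sequences in replicate 3 and 1 in each of the other 5 libraries, so that library stood apart from the rest of its group. Of 19 sets of values examined in this way 1 stood out, and chance gives about 1 in 20 for values without ties. Here the other 5 values were equal, so a difference of 1 sequence was enough for the flag and that rate does not apply. Replicate 3 of pre_PH had the largest piRNA share of the series, and its part in this value was not tested.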

How the results depend on the processing

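With the authors' library totals, 1 of the 9 passed at 24 h against pre_PH, 0 at 168 h against pre_PH and 1 at 168 h against 24 h. For 168 h against pre_PH, 0 also passed with the listed piRNA total, DESeq2, no filter, another filter (at least 10 reads in every library of a group) and the replicate block. Leaving out 1 library gave 0 to 1 passing at 24 h against pre_PH, 0 to 1 at 168 h against pre_PH and 0 to 2 at 168 h against 24 h. The numbers were not shown to pair libraries (correlations 0.0907, 0.0706 and -0.144), and the replicate block gave medians of -0.51 at 24 h, -2.19 at 48 h and 1.23 at 168 h over pre_PH.

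The median log2 fold change of the 9 at 48 h over pre_PH was -1.74 with upper-quartile scaling, -1.89 with the piRNA total and -1.68 with the library total. At 168 h over pre_PH it was 0.39 with the library total and -0.045 with the other filter. At 48 h over 24 h it was -1.19 with the piRNA total, -0.81 with the library total and -2.32 without a filter. At 168 h over 48 h it was 2.38 (RLE), 2.13 (upper quartile), 2.49 (piRNA total), 1.97 (library total), 2.36 (DESeq2), 3.49 (no filter) and 2.08 (other filter). At 168 h over 24 h it was 0.39 (RLE), 0.37 (upper quartile), 0.38 (DESeq2) and -0.022 (other filter). Leaving out 1 library gave -0.74 to -0.059 at 24 h, -3.56 to -2.24 at 48 h and -0.073 to 0.94 at 168 h over pre_PH, -2.88 to -1.71 at 48 h over 24 h, 2.04 to 3.82 at 168 h over 48 h, and -0.065 to 0.93 at 168 h over 24 h. The cause was not tested. The summed level over pre_PH was 0.913 at 24 h without rno_piR_000746 and 2.18 at 168 h as a percent of piRNA reads. Leaving out 1 library, an alternative chosen after seeing the data, gave 0.607 to 0.726 at 24 h, 0.287 to 0.343 at 48 h and 1.48 to 1.76 at 168 h. With 2 libraries per time and 1 to 30 reads behind the rarest values, small differences were not detectable.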
